A study of Mus musculus and Homo sapiens with 24 samples.

Results

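The FOS, JUN and EGR genes are 10 immediate early transcription factor genes: FOS, FOSB, FOSL1 and FOSL2, JUN, JUNB and JUND, and EGR1, EGR2 and EGR3. They were found by symbol, with case ignored, in the tables of a mouse and a human skeletal myoblast line. All 10 were present among the 56748 gene rows of the mouse line C2C12 and among the 58735 rows of the human line LHCN-M2. The study followed both lines through differentiation into muscle cells by RNA sequencing. C2C12 was sampled undifferentiated (day 0) and at days 1 and 6. For LHCN-M2 the days were 0, 1 and 12. Each day has 4 libraries, 24 in all. Every library carries the genotype label control, and no added agent is named. Each line is an established culture, so its libraries do not sample different animals or donors, and LHCN-M2 was immortalised with TERT and CDK4. Whether the 4 replicates of a day came from separate cultures is not stated, and the spread behind each p-value may therefore be technical.

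FOS and JUN proteins form the dimeric transcription factor AP-1. JUN proteins can pair with each other or with a FOS protein, whereas FOS proteins need a JUN partner to bind DNA. FOS and EGR1 are the textbook immediate early genes, switched on within minutes by growth factors through ERK kinase and the serum response factor SRF. FOSL1, FOSL2 and JUND are longer lived or delayed members of the same families. The EGR proteins are zinc finger factors that bind a GC-rich site, and EGR3 is known in muscle for its role in muscle spindles. In myoblasts, AP-1 activity is associated with proliferation, and JUN can bind MYOD1 and restrain it.

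The upstream sequence of 7 of the 10 mouse genes was matched by symbol in RefSeq (GRCm38.p6). The 250 bases before the start site are shown for Fos and Jun, which name their families, and for Fosb and Fosl2, which held the EGR site. Both strands were searched for the cyclic AMP response element TGACGTCA, its core TGACG (which it contains), the AP-1 site TGACTCA, the variant TGACATCA, the EGR site GCGNGGGCG, the TATA element TATAAA, a MEF2 site and a CArG box. Capitals mark the matches, and each line runs 5′ to 3′ on the strand of the gene.
Fos, chr12:85473640-85473889, plus strand: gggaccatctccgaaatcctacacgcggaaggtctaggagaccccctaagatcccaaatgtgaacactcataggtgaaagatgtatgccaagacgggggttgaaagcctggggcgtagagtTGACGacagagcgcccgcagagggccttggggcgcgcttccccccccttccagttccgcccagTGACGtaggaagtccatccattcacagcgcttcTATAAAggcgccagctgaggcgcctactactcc
Jun, chr4:95052223-95052472, minus strand: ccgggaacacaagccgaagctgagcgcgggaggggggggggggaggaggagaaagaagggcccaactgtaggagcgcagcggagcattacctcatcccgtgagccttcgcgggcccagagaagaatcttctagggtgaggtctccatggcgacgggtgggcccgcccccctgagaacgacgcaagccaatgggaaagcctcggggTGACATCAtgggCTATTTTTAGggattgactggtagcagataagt
Fosb, chr7:19310046-19310295, minus strand: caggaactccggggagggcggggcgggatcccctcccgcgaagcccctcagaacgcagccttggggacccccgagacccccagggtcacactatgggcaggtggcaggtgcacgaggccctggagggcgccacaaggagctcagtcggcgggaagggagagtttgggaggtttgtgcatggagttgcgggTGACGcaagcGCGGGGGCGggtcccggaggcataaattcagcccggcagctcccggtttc
Fosl2, chr5:32136222-32136471, plus strand: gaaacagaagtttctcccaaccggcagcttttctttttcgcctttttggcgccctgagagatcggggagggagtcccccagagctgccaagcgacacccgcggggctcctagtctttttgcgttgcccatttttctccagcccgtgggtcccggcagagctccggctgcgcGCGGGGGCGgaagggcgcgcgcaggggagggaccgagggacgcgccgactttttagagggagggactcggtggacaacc
Counted from the start site, Fos held TGACG at -129 to -125 and at -66 to -62, and TATAAA at -33 to -28. Jun held TGACATCA at -45 to -38 and the MEF2 site CTATTTTTAG at -33 to -24. Fosb held TGACG at -60 to -56 and the EGR site, as GCGGGGGCG, at -50 to -42. Fosl2 held the same EGR site at -79 to -71. Of the others matched, Junb held TGACG at -106 to -102, and Jund and Egr2 held none of the motifs searched. Egr2 had 5 start sites listed, and only the window of the first was searched. Among 32851 windows of 250 bases, 17.8% held TGACG, 2.93% TGACATCA, 0.508% the MEF2 site, 4.7% the EGR site and 12.4% TATAAA. Bases farther upstream were not searched, so a missing match, such as that of the CArG box, speaks only for these 250 bases. A match describes letters and is no evidence of binding, and these libraries hold no measurement at the promoters.

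The C2C12 libraries held 32795699 to 43827517 counts each, and those of LHCN-M2 33030258 to 48546621. Levels are CPM, the counts scaled to a common library total after TMM scaling, a correction for composition. Each log2 fold change is given with its standard error (SE). A gene was called when its Benjamini-Hochberg adjusted p in edgeR's quasi-likelihood test, over all genes tested in the line, was under 0.05. The summed muscle markers followed the labels, and in C2C12 they stood at 253 to 270.03 CPM at day 0 against 2304 to 2447 at day 6. In LHCN-M2 the range of 564 to 759 CPM at day 0 compares with 5210.4 to 5528 at day 12. The sum does not speak for each marker. Myf5 rose from 20.6 to 35.8 CPM at day 6 in C2C12. The last-day response of MYF5 in LHCN-M2 lay below that by a log2 difference of -5.04 (adjusted p = 2.42e-20, edgeR). Of the 8 markers, 6 responded higher and 2 lower in LHCN-M2 on the last day (all symbols: 31.2% and 40.0%). Human MYOG and MYMK, both among the 6, stood at 0 counts in LHCN-M2 at day 0, which allows up to 0.0192 CPM over the group. They passed the low-count filter there only through later days, so their higher responses were partly built in. Summed fibroblast markers were lower at day 6 in C2C12 (516 to 541 CPM, against 864 to 1114 at day 0) and higher at day 12 in LHCN-M2 (12831 to 13798 CPM, against 5614 to 5843). The C2C12 sum hides a split: of 4 fibroblast markers tested, 2 rose and 2 fell at day 6 (all genes: 33.1% and 32.5%). Summed smooth muscle markers were lower on the last day in both lines, with 128 to 142 CPM against 423 to 445 in C2C12, and 66.5 to 72.0 CPM against 157 to 246 in LHCN-M2. At day 1 they stood at 42.0 to 48.5 CPM in LHCN-M2 and at 438 to 555 in C2C12, and the fibroblast markers at 5904 to 7428 and 643 to 734. The part of either list in the results was not tested. Endothelial, immune, epithelial and adipocyte markers each summed to at most 32.0 CPM in any library. The fibroblast marker Tcf21 had 0 counts in C2C12 on all days, and human TCF21 had 3 counts at day 0 and 0 later. The 3 fibroblast markers tested in LHCN-M2, COL1A1, PDGFRA and LUM, all rose at day 12 (all genes: 27.1% rose and 27.5% fell). The collagen gene COL1A1 stood there at 5699 CPM at day 0 and 13113 at day 12. TCF21 thus does not speak for the other markers of its list. In LHCN-M2, replicate 2 of day 0 stood apart, with a chi-square per degree of freedom of 115 to 152 against its group, and replicate 1 of day 12 less so at 29.1 to 30.0. Other pairs of one group ran from 6.32 to 23.7 over both lines, and no pair agreed within sampling noise. Without these 2 libraries every call of a member in LHCN-M2 held, and 1 was gained. In bulk RNA, fewer cells of a type and less RNA per cell cannot be told apart.

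All 10 genes passed the filter on low counts in both lines. Human EGR3 did so through its day 12 libraries, so its rise there was partly built into its being tested. At day 1 of C2C12, 6 of the 10 changed, 5 rising and 1 falling, where 50.3% of the 17065 genes tested changed, 25.9% rising and 24.4% falling. At day 6 against day 0, 9 changed (65.6% of all genes), 8 rising (33.1%) and 1 falling (32.5%). From day 1 to day 6, 8 changed (61.4%), 3 rising (32.8%) and 5 falling (28.6%). In LHCN-M2, 7 changed at day 1, where 46.9% of 18214 genes did, with 3 rising (23.4%) and 4 falling (23.5%). At day 12 against day 0, 7 changed (54.6%), 6 rising (27.1%) and 1 falling (27.5%). From day 1 to day 12, 6 changed (39.8%), 4 rising (20.9%) and 2 falling (18.8%). FOSL1, FOSL2, JUN, EGR1 and EGR2 changed in both lines at day 1, and FOS and JUNB in neither. The share of all symbols that changed in both lines was not computed.

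Large changes were fewer. A called change of at least 2-fold was found in C2C12 for 4 of the 10 at day 1 (10.6% of all genes), 3 at day 6 against day 0 (23.4%) and 1 from day 1 to day 6 (18.2%). In LHCN-M2 it was found for 3 at day 1 (18.0%), 3 at day 12 against day 0 (24.3%) and 2 from day 1 to day 12 (13.2%). The libraries of the compared days did not overlap for 6 of the 10 at day 1 in C2C12 (45.7% of all genes), 9 at day 6 against day 0 (59.0%) and 7 from day 1 to day 6 (56.7%). In LHCN-M2 they did not overlap for 6 at day 1 (43.6%), 7 at day 12 against day 0 (48.6%) and 6 from day 1 to day 12 (45.8%). The median log2 fold change of the 10 was 0.63 at day 1 and 0.93 at day 6 in C2C12 (all genes: -0.01 and -0.03). It was -0.20 at day 1 and 0.31 at day 12 in LHCN-M2 (all genes: 0.03 and -0.01). The comparisons of a line with day 0 share those day 0 libraries.

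**Figure D1:**
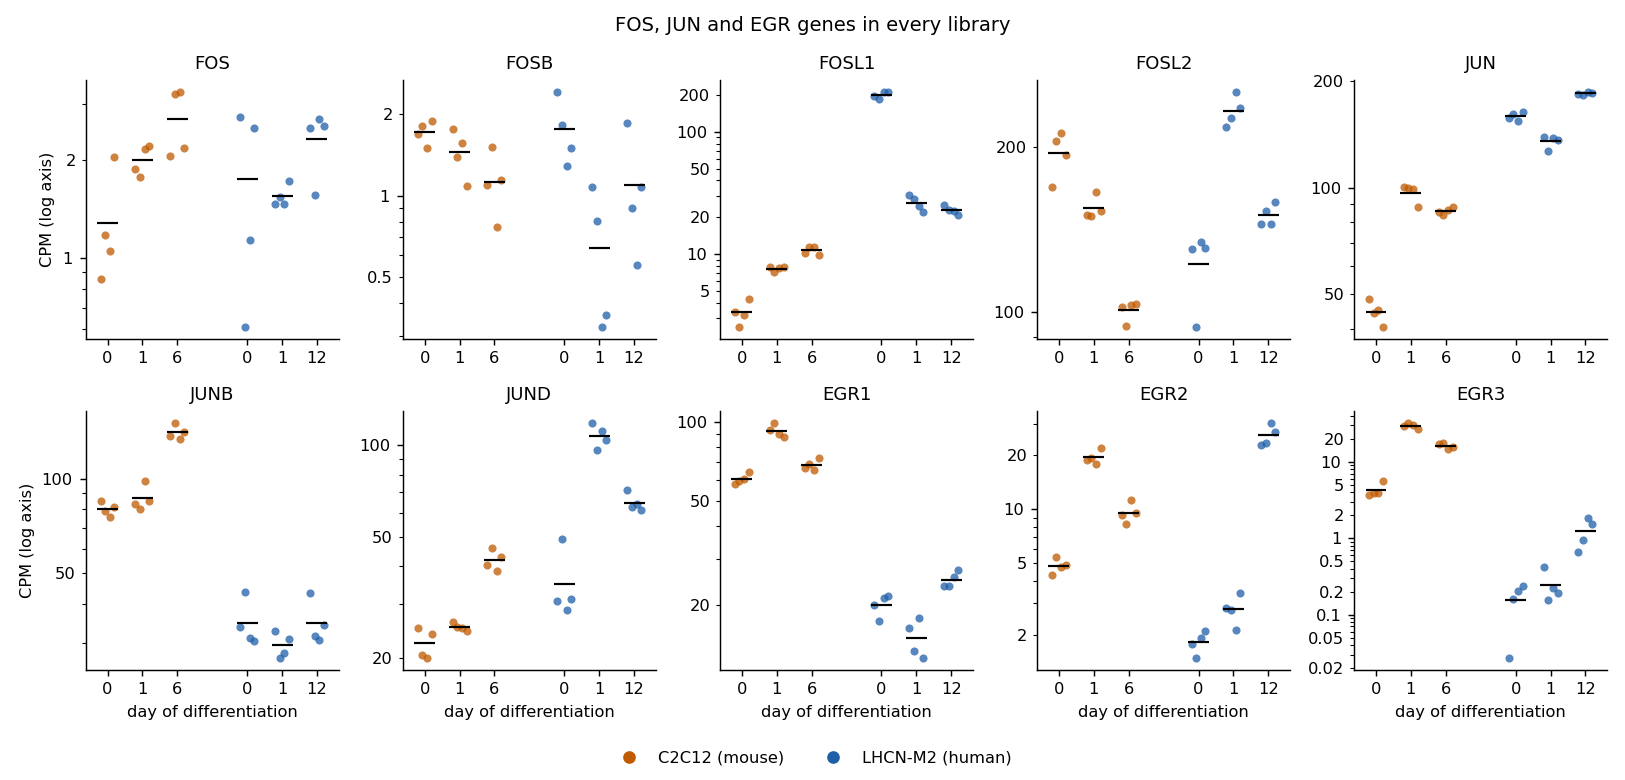
Level of each gene in every library, in CPM on a log axis, by day of differentiation. Points are libraries, 4 per group, and horizontal lines are group means. FOSL1 stood at 184 to 214 CPM in LHCN-M2 at day 0 and at 20.9 to 30.2 later, while in C2C12 it went from 2.53 to 4.30 at day 0 up to 9.89 to 11.4 at day 6.

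FOSL1 encodes FRA-1, a FOS family protein without the strong activation domain of FOS that is prominent in dividing and invasive cells. It moved in opposite directions in the lines. In LHCN-M2 it stood at 196, 184, 214 and 211 CPM at day 0, at 30.2, 28.0, 24.8 and 22.0 at day 1, and at 25.1, 22.8, 22.5 and 20.9 at day 12. Every differentiating library was far below every day 0 library, and the day 1 and day 12 libraries overlapped. Relative to day 0 it was lower by a log2 fold change of -2.94 (SE 0.11, adjusted p = 9.66e-12, edgeR) at day 1 and -3.14 (SE 0.11, adjusted p = 3.21e-12) at day 12, an 8.81-fold fall. Between days 1 and 12 it was -0.20 and not called (adjusted p = 0.131). It passed at an adjusted p of 0.0165 without the pair of libraries that stood apart. In C2C12, Fosl1 stood at 3.33, 2.53, 3.15 and 4.30 CPM at day 0, at 7.81, 7.06, 7.64 and 7.80 at day 1, and at 10.2, 11.4, 11.3 and 9.89 at day 6. The 3 days did not overlap in any pair, and the gene rose at each step. The log2 fold change was 1.18 (SE 0.14, adjusted p = 7.55e-07, edgeR) at day 1 and 1.68 (SE 0.14, adjusted p = 1.58e-09) at day 6. Tested as an interaction over 10953 symbols shared by the lines, the day 1 response of LHCN-M2 lay below that of C2C12 by a log2 difference of -4.12 (SE 0.16, adjusted p = 1.72e-16). For the last day the difference was -4.82 (SE 0.16, adjusted p = 3.62e-18). Mouse Fosl1 overlaps Ccdc85b on the opposite strand, which had 680% of its counts, and the strand setting of the counting is not given. Ccdc85b fell by 0.56 at day 1 and by 0.54 at day 6 on the log2 scale, while Fosl1 rose.

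FOSL2 encodes FRA-2, the close relative of FRA-1 that is associated with differentiating cells in several tissues. In LHCN-M2 it stood at 130.1, 93.7, 134 and 131 CPM at day 0, at 218, 226, 253 and 235 at day 1, and at 145, 152, 145 and 159 at day 12. Day 1 was the highest of the 3 days, and no pair of days overlapped. It rose by 0.93 (SE 0.10, adjusted p = 2.26e-06, edgeR) at day 1 and fell by 0.63 on the log2 scale from there to day 12 (SE 0.10, adjusted p = 1.51e-04). The remaining rise at day 12 over day 0, 0.30 (SE 0.10, adjusted p = 0.0217), lost its call without replicate 4 of day 12 (adjusted p = 0.0615). In C2C12, Fosl2 stood at 169, 205, 212 and 193 CPM at day 0, at 150.3, 149.5, 165 and 153 at day 1, and at 102, 94.2, 103 and 103 at day 6. The levels stepped down without overlap. Against day 0 this was -0.33 (SE 0.06, adjusted p = 1.63e-04) at day 1 and -0.96 (SE 0.06, adjusted p = 3.75e-11) at day 6. The responses of the lines differed by 1.27 (SE 0.12, adjusted p = 3.71e-09) at day 1 and by 1.25 (SE 0.12, adjusted p = 2.71e-09) at the last day, in both cases higher in LHCN-M2. After day 1 the gene fell by 0.62 in C2C12 and by 0.63 in LHCN-M2, and the difference of -0.01 had an SE of 0.12.

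FOS, the founding member, was among the lowest of the 10 in both lines. In C2C12 it stood at 0.859, 1.18, 1.05 and 2.04 CPM at day 0, at 1.88, 1.78, 2.16 and 2.21 at day 1, and at 2.06, 3.21, 3.27 and 2.18 at day 6. Replicate 4 was the highest at day 0 and reached into the day 1 range, and day 6 lay just above day 0. Fos rose by 1.06 (SE 0.28, adjusted p = 0.00222, edgeR) at day 6. The day 1 value of 0.64 missed the threshold (adjusted p = 0.0603), and without replicate 4 of day 0 it was 1.00 (adjusted p = 0.00505). In LHCN-M2, FOS ran from 0.610 to 2.73 CPM at day 0, from 1.46 to 1.73 at day 1 and from 1.56 to 2.68 at day 12. All days overlapped, and the log2 fold changes of -0.18 (SE 0.37) and 0.41 (SE 0.37) against day 0 were not called. No library was taken between day 0 and day 1, so a transient change within that day was not measured.

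FOSB, the other FOS gene with a full activation domain, was as low. In LHCN-M2 it stood at 2.43, 1.83, 1.29 and 1.50 CPM at day 0, at 1.07, 0.801, 0.325 and 0.359 at day 1, and at 1.85, 0.902, 0.553 and 1.08 at day 12. Day 1 lay below day 0 without overlap, and day 12 overlapped both. The log2 fold change at day 1 was -1.46 (SE 0.44, adjusted p = 0.0128, edgeR). It rests on 273 counts over the group at day 0 and 111 at day 1. Human FOSB overlaps ERCC1, a DNA repair gene on the opposite strand with 29547 counts to its 564 over the 12 libraries. ERCC1 fell by 1.15 at day 1 (adjusted p = 9.29e-06), and without a stated strand setting its part in the FOSB value was not tested. In C2C12, Fosb ran from 1.50 to 1.88 CPM at day 0 and from 0.763 to 1.51 at day 6. Its log2 fold changes of -0.24 (SE 0.28) at day 1 and -0.61 (SE 0.28, adjusted p = 0.0632) at day 6 were not called.

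JUN, the partner that most AP-1 dimers share, responded strongly in C2C12 and weakly in LHCN-M2. In C2C12 it stood at 48.4, 44.2, 45.3 and 40.5 CPM at day 0, at 101, 99.95, 98.9 and 88.0 at day 1, and at 85.2, 83.8, 86.4 and 88.4 at day 6. Both later days lay well above day 0 and overlapped each other. Jun rose by 1.12 (SE 0.06, adjusted p = 6.57e-12, edgeR) at day 1 and by 0.95 (SE 0.06, adjusted p = 2.44e-11) at day 6. In LHCN-M2 it stood at 157, 162, 154 and 163 CPM at day 0, at 139, 127, 139 and 136 at day 1, and at 184, 183, 187 and 185 at day 12. The 3 days did not overlap, with day 1 lowest and day 12 highest. The log2 fold change at day 1 was -0.23 (SE 0.06, adjusted p = 0.00485), and it missed the threshold with no filter on low counts (adjusted p = 0.0567). The rise at day 12 was 0.22 (SE 0.06, adjusted p = 0.00671). The day 1 responses differed by -1.35 (SE 0.08, adjusted p = 2.79e-13) between the lines. In C2C12, the antisense RNA Junos held 3.54% as many counts as Jun.

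JUNB, a JUN protein often described as a brake on JUN and known for a role in muscle mass, rose late in C2C12. Junb stood at 85.0, 79.0, 75.8 and 81.4 CPM at day 0, at 83.4, 80.3, 98.6 and 84.9 at day 1, and at 137, 151, 134 and 141 at day 6. Days 0 and 1 overlapped and day 6 lay above both. Junb rose by 0.81 at day 6 (SE 0.06, adjusted p = 5.75e-10, edgeR), and the log2 fold change at day 1 was 0.11 (SE 0.06, adjusted p = 0.159). Mouse Junb overlaps Prdx2 on the opposite strand, which held 382% of its counts and rose by 0.36 at day 6 (adjusted p = 9.78e-06); its part in the Junb value was not tested. In LHCN-M2, JUNB ran from 30.4 to 43.5 CPM at day 0, from 26.9 to 32.9 at day 1 and from 30.6 to 43.2 at day 12. Human JUNB overlaps HOOK2 on the opposite strand, which held 67.9% of its counts and was not called in any comparison. All days overlapped for JUNB, and its log2 fold changes of -0.23 and 0.01 against day 0 (SE 0.13 for each) were not called. The responses differed by -0.80 at the last day (SE 0.15, adjusted p = 5.06e-05).

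JUND, the JUN gene that is usually expressed at a steady level in resting cells, rose early in LHCN-M2 and late in C2C12. In LHCN-M2 it stood at 30.8, 49.3, 28.8 and 31.3 CPM at day 0, at 119, 96.6, 111 and 104 at day 1, and at 71.2, 62.5, 64.3 and 61.3 at day 12. No pair of days overlapped, although replicate 2 of day 0 lay above its group. The rise was 1.62 (SE 0.14, adjusted p = 2.44e-07, edgeR) at day 1 and 0.89 (SE 0.14, adjusted p = 8.26e-05) at day 12. Without the libraries that stood apart these were 1.85 and 1.07. In C2C12, Jund stood at 25.2, 20.4, 20.0 and 23.9 CPM at day 0, at 26.3, 25.2, 25.1 and 24.5 at day 1, and at 40.5, 46.1, 38.7 and 42.8 at day 6. Day 6 lay above the other days. The log2 fold change was 0.91 (SE 0.08, adjusted p = 3.62e-09) at day 6, and 0.17 (SE 0.08, adjusted p = 0.084) at day 1. The day 1 value passed in 6 of the 12 refits that left out a library. The responses differed by 1.44 (SE 0.17, adjusted p = 1.03e-07) at day 1, whereas for the last day the difference was -0.02 with an SE of 0.17.

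**Figure D2:**
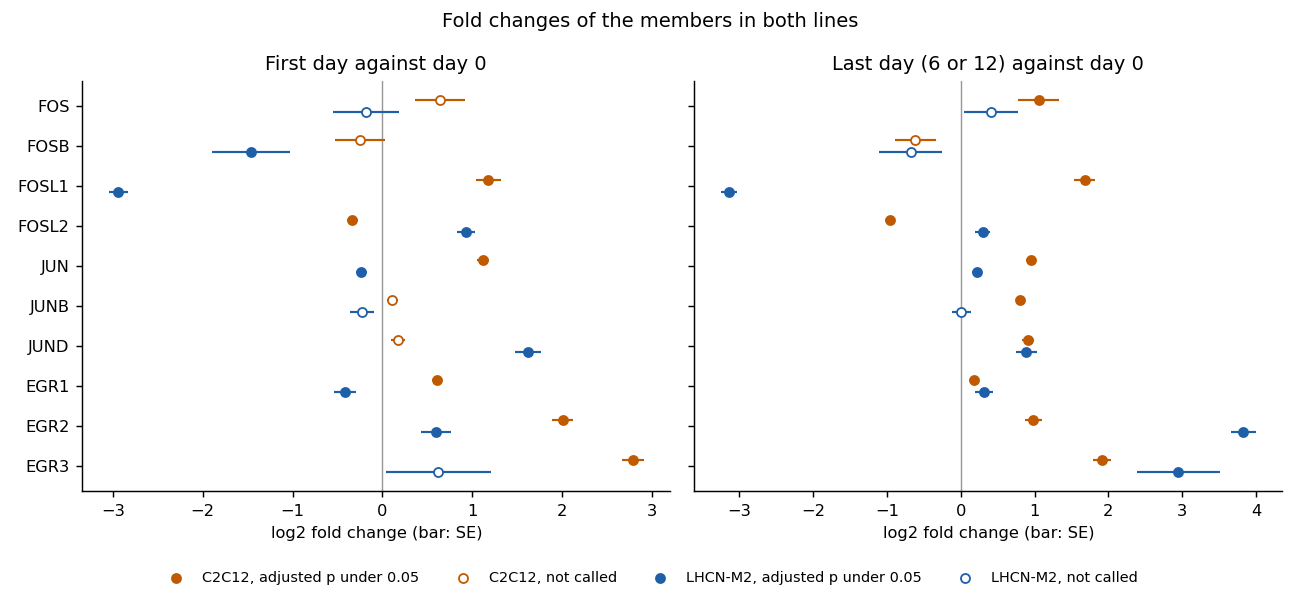
Log2 fold changes against day 0 with their SE, for the first day (left) and the last day (right) in C2C12 and LHCN-M2. Filled points passed an adjusted p of 0.05 in edgeR and open points did not. At day 1, FOSL1 lay at 1.18 in C2C12 and -2.94 in LHCN-M2, and JUN at 1.12 and -0.23.

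The EGR genes rose together at day 1 in C2C12. EGR1 is the best known growth factor response gene of the family. Egr1 stood at 58.0, 59.5, 60.2 and 64.0 CPM at day 0, at 93.0, 99.0, 89.3 and 87.0 at day 1, and at 66.6, 68.6, 65.3 and 72.6 at day 6. The days did not overlap, with day 1 the highest. The rise at day 1 was 0.61 (SE 0.06, adjusted p = 2.57e-08, edgeR). The 0.18 at day 6 (SE 0.06, adjusted p = 0.0115) missed the threshold with no filter on low counts (adjusted p = 0.0702), with library totals alone (adjusted p = 0.0581) and without replicate 4 of day 6 (adjusted p = 0.0576). In LHCN-M2, EGR1 stood at 20.1, 17.4, 21.2 and 21.6 CPM at day 0, at 16.3, 13.4, 17.9 and 12.6 at day 1, and at 23.6, 23.7, 25.6 and 27.2 at day 12. Day 1 was the lowest day and overlapped day 0, and day 12 lay above both. EGR1 fell by 0.41 on the log2 scale at day 1 (SE 0.12, adjusted p = 0.00974). Its 0.32 at day 12 (SE 0.12, adjusted p = 0.0336) lost its call without replicate 1 or 2 of day 0 or replicate 3 or 4 of day 12, at adjusted p values of 0.0501 to 0.096.

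EGR2, known for its part in nerve myelination and hindbrain patterning, peaked on different days in the lines. In C2C12 it stood at 4.32, 5.43, 4.77 and 4.88 CPM at day 0, at 18.8, 19.4, 17.9 and 22.0 at day 1, and at 9.34, 8.24, 11.3 and 9.50 at day 6. The days did not overlap, and the highest libraries were those of day 1. Egr2 rose 4.02-fold at day 1 (log2 2.01, SE 0.12, adjusted p = 1.45e-11, edgeR) and fell by 1.02 on the log2 scale from there to day 6 (SE 0.11, adjusted p = 7.10e-08). In LHCN-M2 it stood at 1.79, 1.49, 1.91 and 2.11 CPM at day 0, at 2.81, 2.74, 2.14 and 3.40 at day 1, and at 22.9, 23.3, 30.4 and 27.1 at day 12. The day 12 libraries were far above all others. EGR2 rose by 0.60 (SE 0.17, adjusted p = 0.00818) at day 1 and 14.2-fold at day 12 (log2 3.83, SE 0.17, adjusted p = 5.15e-11). Over the time after day 1 the lines differed by 4.25 (SE 0.19, adjusted p = 4.80e-15), with a rise in LHCN-M2 and a fall in C2C12.

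EGR3 had the largest fold change of the 10 genes at day 1 in C2C12. Egr3 stood at 3.66, 3.95, 3.87 and 5.60 CPM at day 0, at 29.1, 32.4, 29.9 and 26.9 at day 1, and at 17.0, 17.6, 14.5 and 15.4 at day 6. The days were far apart, with day 1 the highest. The rise was 6.91-fold at day 1 (log2 2.79, SE 0.12, adjusted p = 1.42e-13, edgeR) and 3.77-fold at day 6 (log2 1.91, SE 0.12, adjusted p = 1.51e-11). In LHCN-M2 it was near the limit of these libraries, at 0.0270, 0.159, 0.207 and 0.234 CPM at day 0, 0.415, 0.156, 0.224 and 0.192 at day 1, and 0.663, 0.932, 1.82 and 1.55 at day 12. Days 0 and 1 overlapped and day 12 lay above both. The day 12 value was 2.95 (SE 0.57, adjusted p = 4.15e-04), on 25 counts over the group at day 0 and 198 at day 12. Human EGR3 passed the low-count filter through its day 12 libraries. This value and the line differences that use day 12 were therefore partly built in. The lines differed by -2.19 at day 1 (SE 0.57, adjusted p = 0.00203). The last-day difference of 1.02 (adjusted p = 0.0477) was lost in 13 of 24 refits that left out a library.

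Of the 10 genes, 8 differed between the lines in their day 1 response, 2 higher and 6 lower in LHCN-M2. Among the 10953 symbols tested 60.0% differed, 26.0% higher and 34.0% lower, so the share of the 10 is read against a high background. At the last day against day 0, 6 differed (71.2% of all symbols), 3 higher (31.2%) and 3 lower (40.0%) in LHCN-M2. From day 1 to the last day 7 differed (56.9%), 4 higher (27.0%) and 3 lower (29.9%). For FOSL1, FOSL2, JUN and EGR1 the day 1 change was called in both lines with opposite signs. The share of all symbols with opposite calls was not computed. At day 1, 50.3% of all genes changed in C2C12 and 46.9% in LHCN-M2, so this is not read as particular to the 10.

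Levels of different genes were compared per kilobase of the deposited gene length. In LHCN-M2 at day 0, FOSL1 was the highest of the 10 at 107 ± 7.34 CPM per kb (SD, n = 4), above JUN at 44.9 ± 1.19. JUNB, JUND and FOSL2 followed at 19.1, 18.8 and 17.1 CPM per kb and overlapped in that order. At day 1 JUND was first at 57.7 ± 5.09 and FOSL1 the fifth at 13.9 ± 1.91 CPM per kb, where it overlapped JUNB. At day 12 JUN led with 52.2 ± 0.487 CPM per kb. In C2C12, Junb was the highest on all 3 days, with 34.9 ± 1.70 CPM per kb at day 0 and 61.1 ± 3.25 at day 6. The next highest was Fosl2 at day 0, 20.1 ± 1.94 CPM per kb, and Jun at day 1, 30.4 ± 1.87. Jun, Egr1 and Jund overlapped at day 0 in C2C12, and Jun and Jund at day 6. Fosb was last on every day in C2C12 and EGR3 at days 0 and 1 in LHCN-M2.

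The make-up of the families shifted with these levels. FOSL1 made up 85.7% ± 1.50 (SD, n = 4) of the summed CPM per kb of the FOS family in LHCN-M2 at day 0, 29.5% ± 3.88 at day 1 and 35.6% ± 2.52 at day 12. FOSL2 went from 13.6% ± 1.30 to 69.2% ± 3.96 and 61.7% ± 2.70. The sum of the family fell meanwhile from 125 ± 9.80 CPM per kb at day 0 to 47.1 ± 1.56 and 34.0 ± 0.643. In C2C12 the shift ran the other way: Fosl2 went from 89.1% ± 2.45 at day 0 to 76.8% ± 0.919 and 61.2% ± 3.12, and Fosl1 from 7.29% ± 1.71 to 17.9% ± 0.816 and 31.0% ± 1.67. At the last day FOSL2 was thus at 61.2% of the family in C2C12 and 61.7% in LHCN-M2. Within the JUN family of LHCN-M2, JUND went from 22.5% ± 3.41 at day 0 to 51.4% ± 1.25 at day 1 and 32.8% ± 0.815 at day 12. In C2C12, Jun went from 22.5% ± 1.55 to 36.5% ± 1.91 and back to 23.8% ± 1.29. EGR2 made up 7.12% ± 0.365 of the EGR family at day 0 and 46.0% ± 2.09 at day 12 in LHCN-M2, and Egr3 20.3% ± 0.964 at day 1 in C2C12. These shares are descriptions, and the scaling by gene length assumes the same transcript at all days. Between the lines the shares also rest on the deposited lengths, such as 9.68 kb for Fosl2 and 7.157 kb for FOSL2, which were not checked.

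**Figure D3:**
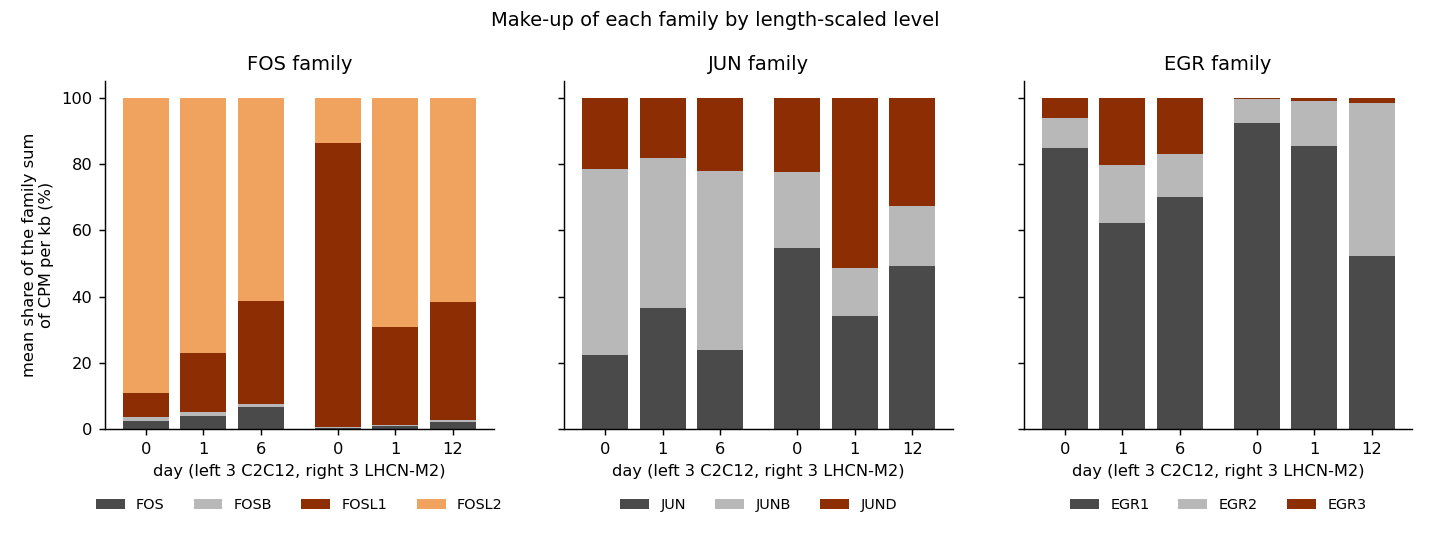
Mean share of each gene in the summed CPM per kb of its family (percent, 4 libraries per bar) by day, with C2C12 on the left of each panel and LHCN-M2 on the right. FOSL1 filled 85.7% of the FOS family in LHCN-M2 at day 0 and 29.5% at day 1, and JUND 51.4% of the JUN family at day 1.

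Over the 12 libraries of a line, some members followed each other closely. In C2C12 the Pearson r of log2 CPM was 0.97 between Junb and Jund, 0.96 between Jun and Egr3, and -0.98 between Fosl2 and Jund. In LHCN-M2 it was 0.91 between JUN and EGR1, 0.90 between EGR2 and EGR3, and -0.84 between FOSL1 and JUND. Human EGR3 had only 25 counts over the group at day 0 and 43 at day 1. The pairs named are among the most extreme of each line. The points of each value are the same 12 libraries in 3 days, so r carries the differences between days. It does not show that libraries vary together within a day. By the same measure, the 5 genes most like Fosl1 in C2C12 were Clcn4 (r = 0.99), 3110001I22Rik, Sox11, Tafa5 and Ccnd1 (r = 0.98 each). Those most like FOSL1 in LHCN-M2 were CAPN2, PRDM8, LINC00973, ZW10 and NT5E, with r from 0.995 to 0.998. For EGR1 they were Spag1, Scn7a, Dcakd, Mta2 and Septin9 in C2C12 (0.97 to 0.99), and DMC1, CREB5, HOXB9, ATP10A and COL4A2 in LHCN-M2 (0.94 to 0.97). For FOS they included Plcg2, Ddx55, Polr1e and Ptger4 in C2C12 (0.89 to 0.90), and in LHCN-M2 were B3GALNT2, ENOX2, ENTPD1-AS1, AHCYL1 and ADCY6 (0.85 to 0.88).

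The genes around these families were followed in lists, beginning upstream. The share of all genes tested that rose and that fell in the same comparison stands beside each count. Of SRF and 5 of its cofactors, 4 rose and 0 fell at day 1 in C2C12 (all genes: 25.9% and 24.4%), with a median log2 fold change of 0.43. Srf went from 55.1 to 78.3 CPM (log2 0.51, adjusted p = 2.93e-06, edgeR) and Mrtfa, its actin-sensing coactivator, from 45.7 to 70.4 (0.62, adjusted p = 3.26e-07). Both fell by day 6, to 43.7 and 32.6 CPM, below day 0. In LHCN-M2, 2 of 6 rose and 2 fell at day 1 (all genes: 23.4% and 23.5%). SRF rose from 70.9 to 107 CPM (0.60, adjusted p = 5.00e-06), while the ternary complex factor ELK3 fell from 238 to 104 (-1.20, adjusted p = 2.97e-09) and to 70.8 at day 12.

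The ERK pathway feedback genes are transcribed when ERK is active, and part of them act to damp it. They mostly rose in C2C12 and mostly fell in LHCN-M2 at day 1. In C2C12, 12 of 13 rose and 0 fell (all genes: 25.9% and 24.4%), with a median log2 fold change of 1.18. In LHCN-M2, 1 rose and 9 fell (all genes: 23.4% and 23.5%), with a median of -1.09. The day 1 responses differed in 12 of the 13, all lower in LHCN-M2, where 34.0% of all symbols were lower. For the last day against day 0, all 13 were lower in LHCN-M2, where 40.0% of all symbols were. After day 1 the list ran the other way between the lines, with 9 higher and 3 lower in LHCN-M2 and a median difference of 0.34, where 27.0% of symbols were higher and 29.9% lower. Within C2C12, 6 rose and 6 fell from day 1 to day 6 (all genes: 32.8% and 28.6%). Dusp6, the cytoplasmic ERK phosphatase, rose from 12.04 to 48.0 CPM at day 1 in C2C12 (log2 1.99, adjusted p = 2.70e-13, edgeR) and reached 73.1 at day 6. Spry4, an inhibitor of receptor signalling to ERK, rose from 1.19 to 5.38 (2.18, adjusted p = 1.91e-08) and fell back to 2.55 at day 6. In LHCN-M2, SPRY4 fell from 52.9 to 14.4 CPM (-1.88, adjusted p = 1.76e-08), DUSP5, the nuclear ERK phosphatase, from 53.4 to 10.8 (-2.31, adjusted p = 1.17e-10), and the ETS factor ETV4 from 25.2 to 4.39 (-2.52, adjusted p = 1.71e-07). No measurement of ERK activity is in these data.

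Other immediate early genes were split in C2C12 at day 1, with 9 of 21 tested higher and 8 lower (all genes: 25.9% and 24.4%) and a median log2 fold change of 0.01. In LHCN-M2, 1 of 20 was higher and 13 were lower (all genes: 23.4% and 23.5%), with a median of -0.72. Arc rose from 0.888 to 5.03 CPM (log2 2.49, adjusted p = 3.29e-09, edgeR) and the phosphatase gene Dusp1 from 13.9 to 35.4 (1.35, adjusted p = 7.03e-11) in C2C12. In LHCN-M2, CTGF, a matrix protein gene known as a YAP and SRF target, fell from 366 to 62.4 CPM at day 1 (-2.55, adjusted p = 9.87e-13) and stood at 498 at day 12. KLF6 fell from 241 to 88.7 (-1.44, adjusted p = 1.84e-09). BTG2, an antiproliferative gene, was the one that rose, from 37.0 to 94.0 (1.34, adjusted p = 8.08e-10). By the last day 12 of 21 were higher and 6 lower in C2C12 (all genes: 33.1% and 32.5%). In LHCN-M2, 4 of 20 were higher and 11 lower by then (all genes: 27.1% and 27.5%).

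Downstream, genes with described AP-1 sites had 6 of 11 tested higher and 2 lower at day 1 in C2C12 (all genes: 25.9% and 24.4%). In LHCN-M2, 1 of 10 rose and 6 fell (all genes: 23.4% and 23.5%). PLAUR, the urokinase receptor, fell in LHCN-M2 from 104 to 20.1 CPM at day 1 (log2 -2.37, adjusted p = 1.06e-09, edgeR) and to 15.6 at day 12. HBEGF, a ligand of the EGF receptor, fell there from 9.11 to 2.48 (-1.88, adjusted p = 3.12e-06) and stood at 23.6 at day 12. In C2C12, Hbegf rose from 10.6 to 14.2 (0.42, adjusted p = 5.88e-04) and to 49.3 at day 6. Mmp9, a matrix protease gene, went from 8.98 to 19.4 CPM at day 1 (1.11, adjusted p = 1.68e-04) and was down to 0.0757 at day 6. Of the EGR corepressors, Nab2 rose by 0.40 at day 1 in C2C12 (adjusted p = 4.94e-05) and NAB2 fell by 0.40 on the log2 scale in LHCN-M2 (adjusted p = 0.00133). EGR4 had 0 counts in both lines, which allows up to 0.0209 CPM over a group.

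**Figure D4:**
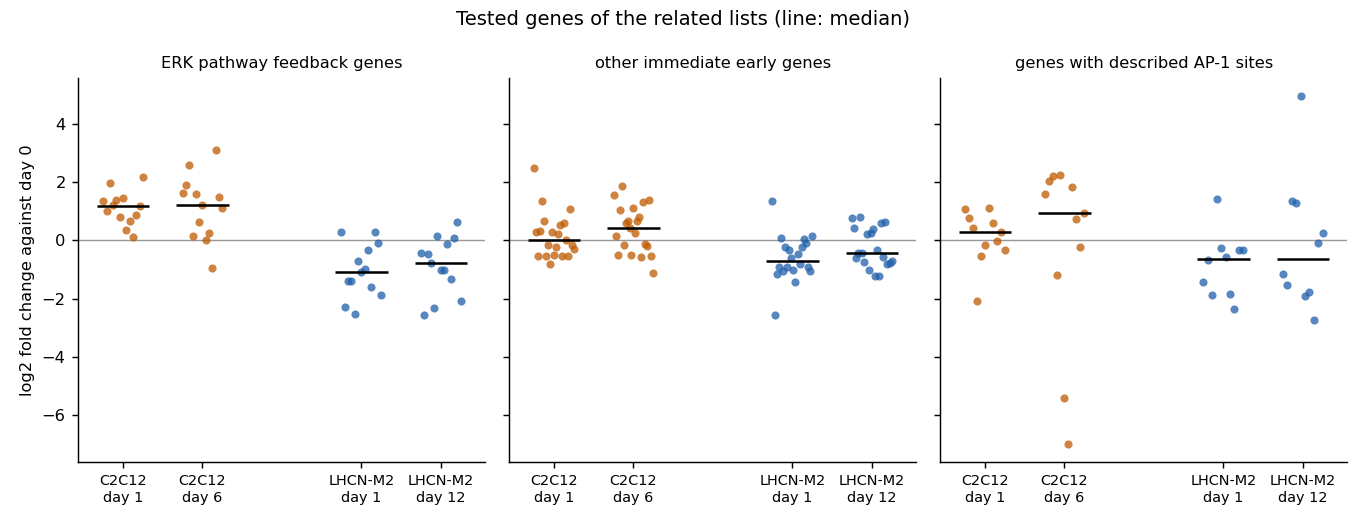
Log2 fold change against day 0 of every tested gene in 3 lists, by line and day, with the median as a line. For the ERK pathway feedback genes the median was 1.18 at day 1 in C2C12 and -1.09 in LHCN-M2.

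The other basic leucine zipper partners of AP-1 had 4 of 10 tested higher and 3 lower in C2C12 at day 1 (all genes: 25.9% and 24.4%). In LHCN-M2, 5 of 11 were higher and 2 lower (all genes: 23.4% and 23.5%). The shares that fell were thus near those of all genes. MAF rose at day 1 in both lines, from 12.2 to 33.4 CPM in C2C12 (log2 1.46, adjusted p = 7.42e-12, edgeR) and from 14.9 to 76.9 in LHCN-M2 (2.37, adjusted p = 3.39e-11). Atf3, a stress-induced member, fell from 14.4 to 5.45 CPM at day 1 in C2C12 (-1.41, adjusted p = 5.04e-11) and rose to 21.3 at day 6. Inducible heat shock genes, which share stress inputs with FOS and JUN, rose in 4 of 6 and fell in 2 at day 1 in C2C12 (all genes: 25.9% and 24.4%), with Hspa1b going from 8.75 to 53.1 CPM (2.60, adjusted p = 2.75e-15). In LHCN-M2 1 rose and 3 fell (all genes: 23.4% and 23.5%). On days 0, 1 and 6 of C2C12 their summed levels were 768 to 872, 710 to 762 and 1083 to 1177 CPM. Hspd1 and Hspe1 weigh most in this sum, at 490 and 228 CPM at day 0, 346 and 173 at day 1, and 561 and 246 at day 6. The sum was thus lower at day 1 although 4 of the 6 genes rose, and it does not speak for each gene. For LHCN-M2 on days 0, 1 and 12 the summed levels were 812 to 923, 586 to 592 and 513 to 566 CPM. The part of the heat shock genes in the values of the FOS, JUN and EGR genes was not tested.

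In the deposited human table on GRCh38, FOSL1 spans chr11:65892049-65900573 on the minus strand and FOSL2 chr2:28392448-28417312 on the plus strand. JUN, an intronless gene, spans chr1:58780788-58784327 and JUND chr19:18279760-18281622, both on the minus strand. EGR2 spans chr10:62811996-62919900 on the minus strand, 107905 bases for 3689 bases of counted length.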

How the data were processed

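RNA was taken through poly-T capture and random hexamer priming, per the labels' protocols. The authors deposited raw read counts per gene for each library, 1 table per line. The submitters' processing notes name featureCounts 2.0.6, HISAT2 2.2.1, StringTie 2.2.3 and fastp, and the builds mm10, hg38 and GRCh38, with no role or order. The strand setting of the counting is not given in the sources used here, so reads of overlapping antisense genes could be shared. Overlaps were read from the deposited coordinates for the human genes and from a GENCODE annotation of GRCm38 for the mouse genes.

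From these counts, edgeR 4.0.16 (R 4.3.3) was fitted to each line's 12 libraries, a coefficient for every day, after its default expression filter (minimum count 10) and TMM scaling. Each pair of days was compared with its quasi-likelihood test. P-values were adjusted by Benjamini and Hochberg over all genes tested. The SE of a log2 fold change is its size divided by the square root of the F statistic. The lines were compared through an interaction term over 24 libraries, with scaling within each line and symbols matched ignoring case. Line and laboratory handling cannot be told apart in that term. The procedure was also run on simulated counts with the same spread for every gene and no library that stood apart. Such counts are simpler than these libraries, so that run gives no error rate for them.

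Total counts were 32795699 to 48546621 per library, which limits precision for FOS, FOSB and human EGR3. The 10 genes and all lists were chosen with earlier results of these data known. Lists covered other AP-1 partners, SRF and its cofactors, other immediate early genes, ERK pathway feedback genes, EGR corepressors, genes with described AP-1 sites, heat shock genes, and markers of muscle and other cell types. Up to 4 genes of a list were named per line, by largest absolute log2 fold change among those called in at least 1 comparison. Hspd1 and Hspe1 of C2C12 were named outside this rule, for their weight in a sum. Genes most like FOS, FOSL1 and EGR1 were the 5 with the highest Pearson r over 12 libraries, with a mean of at least 1 CPM. Some genes these rules select are not reported here. Alternatives were DESeq2 1.42.0, RLE or total-count scaling, no or a stricter low-count filter, only the days compared, a replicate block and leaving out libraries.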

Additional observations from a re-analysis of the deposited data

Results flagged for a closer look

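Of the 60 sets of 4 libraries (10 genes, 6 groups), 6 held a library whose gap to the rest passed Dixon's 95% limit. Chance alone passes it in about 1 of 20 sets. The libraries were Egr3 in C2C12 day 0 replicate 4 (5.60 CPM, high), Jun in C2C12 day 1 replicate 4 (88.0 CPM, low) and Fosl2 in C2C12 day 6 replicate 2 (94.2 CPM, low). In LHCN-M2 they were FOSL2 in day 0 replicate 2 (93.7 CPM, low), JUND in the same library (49.3 CPM, high) and FOS in day 12 replicate 2 (1.56 CPM, low).

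The response differed between the lines, by the interaction term in edgeR, for these genes, given as the log2 fold change of LHCN-M2 minus that of C2C12. At day 1 against day 0 the difference was -1.22 for FOSB, -4.12 for FOSL1, 1.27 for FOSL2 and -1.35 for JUN. It was 1.44 for JUND, -1.02 for EGR1, -1.41 for EGR2 and -2.19 for EGR3. At the last day against day 0 it was -4.82 for FOSL1, 1.25 for FOSL2, -0.73 for JUN, -0.80 for JUNB, 2.84 for EGR2 and 1.02 for EGR3. From day 1 to the last day it was -0.70 for FOSL1, 0.62 for JUN, -0.46 for JUNB and -1.46 for JUND. Over the same span it was 1.16 for EGR1, 4.25 for EGR2 and 3.21 for EGR3. The last days are day 6 in C2C12 and day 12 in LHCN-M2.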

How the results depend on the processing

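Over 2033 values of the 10 genes under the alternatives, 1921 kept their direction and side of the threshold, 44 newly passed it, 31 no longer did and 37 reversed. The count of genes lower at day 6 than at day 0 in C2C12 was 1, and 2 under DESeq2, the stricter filter and total counts, with Fosb added (adjusted p = 0.0417, 0.0422 and 0.0449). Leaving out 1 library at a time gave 1 to 2. Under DESeq2, Fos also passed at day 1 in C2C12 (adjusted p = 0.0412).

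Reversals were among values that were not called. The last-day difference between the lines was 0.060 for FOSB with TMM over all 24 libraries. For JUND it was 0.028 with RLE, 0.010 with the stricter filter, 0.10 with TMM over all 24 libraries and 0.17 without the pair of LHCN-M2 libraries that stood apart. From day 1 to the last day, FOSL2 differed by 0.040 with RLE and by 0.0023 without that pair. Leaving out single libraries, the last-day difference ran from -0.44 to 0.16 for FOSB and from -0.10 to 0.20 for JUND, and the later FOSL2 difference from -0.046 to 0.051. In LHCN-M2, FOS at day 1 ran from -0.44 to 0.11 and JUNB at day 12 from -0.11 to 0.14. The cause was not tested. The FOSB difference at day 1 was lost with TMM over all 24 libraries (adjusted p = 0.0609) and in 7 of 24 refits that left out a library (adjusted p from 0.0517 to 0.103). In those refits the count of the 10 genes lower in LHCN-M2 at day 1 ran from 5 to 8.

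Replicate numbers did not pair the libraries: 0 of 12 same-numbered pairs in each line had a correlation over 0.1 (C2C12 r between -0.05 and 0.04, LHCN-M2 r between -0.10 and 0.09). Among differently numbered libraries, day 0 replicate 2 and day 12 replicate 1 of LHCN-M2, which stood apart, reached r = 0.24. With a replicate block no count of called genes among the 10 moved by over 1.5 times. In that fit the last-day EGR3 difference was 1.01 (adjusted p = 0.0532) and the later FOSB difference 1.19 (adjusted p = 0.0199). Other scalings moved the median of all genes by at most 0.062 on the log2 scale.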
